A study of Mus musculus with 16 samples.

Results

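Suz12 peaks of mouse embryonic stem cells (ESCs) were compared between LIF-ESCs and Myc-ESCs. All peaks of the Suz12 list of each culture were taken, 13907 in Myc-ESCs and 11305 in LIF-ESCs, which made 25212 of the 107863 peaks in the 6 lists of the series. Because the list of Myc-ESCs was longer, each comparison was repeated with the 11305 peaks of highest score in each culture, called here lists of equal length. The cells were R1 mouse ESCs that carried a fusion of Myc with the oestrogen receptor (MycER, clone D1), which 4-hydroxytamoxifen (OHT) activates. The Myc in this fusion was not wild type but a point mutant, with a threonine replaced by alanine. LIF-ESCs were grown in 100 units per ml of leukaemia inhibitory factor (LIF), and Myc-ESCs in 50 nM OHT without LIF, both without feeder cells. Each culture had 2 Suz12 libraries and 1 deposited list, and the series held 16 libraries with H3K27me3, H3K4me3 and input. Both cultures carried the fusion, and the presence of OHT and the absence of LIF cannot be told apart as the source of a difference. All the ChIP material came from a single cell line.

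Suz12 is a core subunit of Polycomb repressive complex 2 (PRC2), together with Ezh2 or Ezh1 and Eed. PRC2 methylates lysine 27 of histone H3, and the resulting H3K27me3 marks genes kept silent. In ESCs it sits mostly on CpG-rich start sites of developmental regulators, many of which also carry H3K4me3, the mark of active start sites, and are then called bivalent. LIF signals through Jak kinases and Stat3 to keep mouse ESCs self-renewing.

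A peak list gives positions and a score but no reads, so the depth of each library is unknown. With 1 list per culture there was no replicate error, no difference was tested, and every value below describes these lists. Intervals are 95% Wilson intervals and cover counting error only, since neighbouring peaks are not independent. A peak missing from a list had not passed the peak caller's limit, which does not show that Suz12 was absent. As a check of the antibody, 39 of 39 Hox genes, the classic Polycomb targets, had a Suz12 peak in each culture, against 0 of 74 ribosomal protein genes in LIF-ESCs and 1 (Rpl7) in Myc-ESCs.

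Sequence from 5 places shows the DNA at genes whose Suz12 differed between the cultures, with every CG in capitals because CpG-rich DNA is where PRC2 is found in ESCs. The first 3 are the central 200 bases of the highest-scoring Suz12 peak at genes of the comparison, on the plus strand of GRCm38. They came from the Myc-ESC peak over the start of Tbx3 (chr5:119670547-119670746, upstream of Tbx3 and inside its antisense gene Tbx3os1), the Myc-ESC peak in Klf4 (chr4:55531275-55531474, intronic) and the LIF-ESC peak in Lef1 (chr3:131112005-131112204, intronic). The other culture had no Suz12 peak on any of the 3. The last 2 are the 250 bases before the start site from RefSeq (GRCm38.p6), on the gene's strand, of Socs3 (chr11:117969367-117969616, minus) and of Fgf5 (chr5:98253934-98254183, plus). Suz12 peaks of Myc-ESCs covered 103 of the 250 bases at Socs3, and those of LIF-ESCs covered none. The Fgf5 stretch was covered whole in both cultures.
Tbx3, Myc-ESC peak: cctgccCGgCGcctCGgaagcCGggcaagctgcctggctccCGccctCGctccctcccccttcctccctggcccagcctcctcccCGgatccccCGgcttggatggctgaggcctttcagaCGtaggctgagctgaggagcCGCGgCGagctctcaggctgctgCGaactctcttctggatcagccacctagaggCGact
Klf4, Myc-ESC peak: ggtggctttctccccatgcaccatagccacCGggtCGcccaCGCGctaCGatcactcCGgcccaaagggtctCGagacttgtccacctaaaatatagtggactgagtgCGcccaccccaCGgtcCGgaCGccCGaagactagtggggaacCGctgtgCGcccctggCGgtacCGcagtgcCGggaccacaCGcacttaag
Lef1, LIF-ESC peak: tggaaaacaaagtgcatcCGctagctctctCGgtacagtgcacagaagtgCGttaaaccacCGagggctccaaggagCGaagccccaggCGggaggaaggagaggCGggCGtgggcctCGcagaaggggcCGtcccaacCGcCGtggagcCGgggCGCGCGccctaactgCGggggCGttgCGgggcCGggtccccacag
Socs3 promoter: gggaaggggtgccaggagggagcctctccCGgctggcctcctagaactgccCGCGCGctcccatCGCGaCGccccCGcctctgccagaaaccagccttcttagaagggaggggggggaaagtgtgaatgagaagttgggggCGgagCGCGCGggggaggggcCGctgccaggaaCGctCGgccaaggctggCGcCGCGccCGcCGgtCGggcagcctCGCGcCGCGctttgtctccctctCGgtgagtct
Fgf5 promoter: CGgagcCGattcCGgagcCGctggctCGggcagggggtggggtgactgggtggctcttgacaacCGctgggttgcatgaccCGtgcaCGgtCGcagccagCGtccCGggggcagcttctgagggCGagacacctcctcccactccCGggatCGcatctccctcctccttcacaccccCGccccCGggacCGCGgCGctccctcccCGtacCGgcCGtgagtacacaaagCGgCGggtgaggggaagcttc

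These stretches held 14 CG in Tbx3, 18 in Klf4, 20 in Lef1, 26 in Socs3 and 24 in Fgf5. The median for the central 200 bases was 5 over all peaks of Myc-ESCs and 6 over all peaks of LIF-ESCs. Among peaks of at least 1000 bp the median was 10 in Myc-ESCs and 9 in LIF-ESCs. For promoters of 250 bases it was 16 for genes with Suz12 in Myc-ESCs only, and also for genes with it in both cultures. It was 11 for genes with Suz12 in LIF-ESCs only and 5 over all promoters. The E-box CACGTG, which Myc and Max bind, was in none of the 5 stretches, and it was found in 2.72% of the peak centres of Myc-ESCs (interval 2.46 to 3.00) and 2.96% of those of LIF-ESCs (2.67 to 3.29). Over promoters of 250 bases it was in 7.67% of those of genes with Suz12 in Myc-ESCs only (5.95 to 9.83). The share was 7.04% for genes with Suz12 in both cultures (5.99 to 8.24). It was 6.85% for genes with Suz12 in LIF-ESCs only (4.32 to 10.7) and 5.93% over all 27025. CACGTG itself holds a CG, and the part of CG content in these shares was not tested. Each gene gave a single promoter, which need not lie at the start site that had Suz12. The motif TTCNNNGAA, which Stat factors bind, was found once in the Socs3 stretch and in none of the other 4. It was in 7.11% of all promoters and 5.21% of those of genes with Suz12 in Myc-ESCs only. For genes with Suz12 in LIF-ESCs only the share was 6.05%, and for genes with it in both cultures 4.32%. Both motifs read the same on either strand, and neither contains the other.

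Suz12 covered more of the genome in Myc-ESCs. The peaks spanned 9.38 Mb in Myc-ESCs against 6.22 Mb in LIF-ESCs, 1.51 times as much, and 8.90 Mb, or 1.43 times, with lists of equal length. Most of the excess lay in long peaks, not in the typical peak. The median peak of 269 bp in Myc-ESCs was hardly longer than that of 262 bp in LIF-ESCs, while peaks of at least 1000 bp numbered 2366 against 1480 and held 5.83 Mb against 3.15 Mb. Peaks of at least 5000 bp numbered 196 in Myc-ESCs against 55 in LIF-ESCs, and those of at least 10000 bp 27 against 3. Scores also ran higher in Myc-ESCs, where 522 peaks shared the common top value of 3100 against 161 in LIF-ESCs. The score grows with read depth as well as with enrichment, and the part of depth in these differences was not tested.

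Most Suz12 peaks of LIF-ESCs shared at least 1 base with a Myc-ESC peak, while most peaks of Myc-ESCs overlapped none of LIF-ESCs. Of the LIF-ESC peaks, 8838 (78.2%, 77.4 to 78.9) overlapped a Myc-ESC peak, and 2467 did not. Of the Myc-ESC peaks, 6269 (45.1%, 44.3 to 45.9) overlapped a LIF-ESC peak, and 7638 did not. With lists of equal length the shares were 75.4% and 50.9%. When at least 50% of both peaks had to overlap, they were 23.7% and 19.3%, so most LIF-ESC peaks had no Myc-ESC peak of like extent. The share was tied to the score. Each list was split by score into 10 groups of like size. In the lowest group of the LIF-ESC list 57.9% of peaks were shared, and in the highest 99.7%. The same groups of the Myc-ESC list gave 19.1% and 97.7%. In the eighth group from the bottom the shares were 93.6% for LIF-ESCs against 65.0% for Myc-ESCs, so unmatched peaks reached well above the weakest scores in Myc-ESCs. Peaks with no counterpart were nevertheless mostly weak and short. Their median score was 70.0 in Myc-ESCs and 64.9 in LIF-ESCs, and their median length 210 bp and 198 bp. At least 1000 bp was reached by 200 of the 7638 and by 10 of the 2467.

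**Figure D1:**
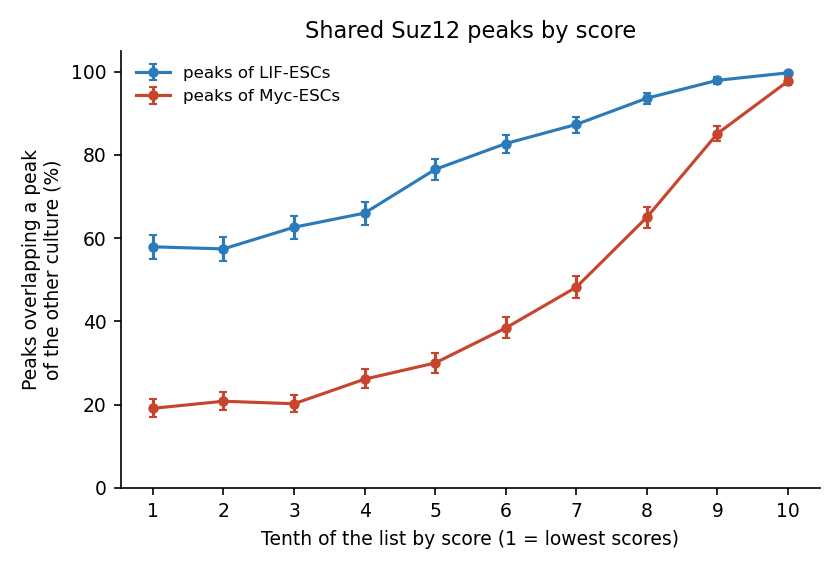
Share of Suz12 peaks that overlap a peak of the other culture (y axis, percent) in each of 10 groups of a list by score (x axis, 1 is the lowest), with 95% Wilson intervals. LIF-ESC peaks run from 57.9% to 99.7% and Myc-ESC peaks from 19.1% to 97.7%.

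Overlapping peaks were grouped into 14879 regions. In 2210 regions 1 peak of each culture met, in 1368 a single Myc-ESC peak spanned several LIF-ESC peaks, in 429 a single LIF-ESC peak spanned several Myc-ESC peaks, and in 767 several peaks of each met. The rest were the unmatched peaks. Where 1 peak met 1 peak, it was longer in Myc-ESCs in 1551 of 2210 pairs (70.2%, 68.2 to 72.1) and shorter in 648. The median length went from 246 bp for LIF-ESCs to 363 bp for Myc-ESCs, with a median ratio of 1.23 within pairs. At least 2 times the length was seen in Myc-ESCs for 503 pairs and in LIF-ESCs for 91. The LIF-ESC peak lay inside the Myc-ESC peak at both ends in 848 pairs, and the reverse held in 205. The share longer in Myc-ESCs was lowest among the shortest pairs. Pairs were split into 4 groups of like size by the geometric mean of both lengths, which favours neither culture. In the shortest group 48.3% were longer in Myc-ESCs (44.1 to 52.4), and in the longest 83.7% (80.4 to 86.6). When the lists had equal length, the shares were 62.5% (58.2 to 66.6) and 81.3% (77.6 to 84.4). That cut took out only low-scoring Myc-ESC peaks, which were mostly short, and so favours longer Myc-ESC peaks among the pairs. The higher share in the shortest group can therefore not be read as widening. The third group had the largest median ratio of the 4, 1.98. Pairs with a gene start site within 2500 bp were longer in Myc-ESCs in 73.1% (70.8 to 75.3), and the other pairs in 64.5% (61.0 to 67.8).

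Neighbouring LIF-ESC peaks were often fused in Myc-ESCs. There were 2334 Myc-ESC peaks that each spanned at least 2 LIF-ESC peaks, 6398 of them in all, and 173 spanned 5 or more. The reverse was seen for 1349 LIF-ESC peaks, which spanned 2844 Myc-ESC peaks, and 3 of them spanned 5 or more. The gaps bridged were short, with a median of 63 bp in Myc-ESCs and 33 bp in LIF-ESCs. Gaps of 200 bp or more were bridged 747 times in Myc-ESCs and 75 times in LIF-ESCs. A start site lay within 2500 bp of 74.3% of the fused peaks of Myc-ESCs. When peaks up to 500 bp apart were joined within each list first, 432 Myc-ESC peaks spanned several of LIF-ESCs and 47 the reverse. The Myc-ESC peak that joined most LIF-ESC peaks took in 15, at chr6:52211213-52242167 in the Hoxa cluster. The next joined 14 at chr7:62451903-62465249 over Peg12, an imprinted gene expressed from the paternal copy, where the 14 peaks of LIF-ESCs added up to 5437 bp of the 13347 bp. The next joined 12 at chr6:52198311-52210358 over Hoxa5. In the reverse direction, a LIF-ESC peak spanned 6 Myc-ESC peaks 77532 bp from the start of Zfhx3, and another spanned 5, 720 bp from the start of Pou3f1, a POU factor of the late epiblast and neural lineage.

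Long domains were more numerous in Myc-ESCs. After joining peaks up to 500 bp apart, 131 domains of Myc-ESCs and 57 of LIF-ESCs were at least 10000 bp long, and 24 and 4 at least 20000 bp. In each of the 6 longest domains of LIF-ESCs, Myc-ESC peaks covered more bases than LIF-ESC peaks. Over the Hoxc genes from Hoxc8 to Hoxc12 a domain of 77138 bp in Myc-ESCs held 72365 bp of Suz12 peaks, where LIF-ESCs had 51289 bp. Over Hoxa3 to Hoxa11 a domain of 63366 bp held 62495 bp in Myc-ESCs and 50665 bp in LIF-ESCs. Over Hoxb5 to Hoxb9 the values were 38300 bp and 30409 bp. Long domains of Myc-ESCs also lay outside the Hox genes. On chromosome 6 a domain of 36301 bp held no gene start site, and a domain of 35497 bp held that of Rn4.5s. LIF-ESC peaks covered 30907 bp and 30152 bp there, and whether these stretches are repeats was not tested. In each culture the longest domain was none of these but a stretch of about equal length on chromosome 8 (87420 bp in Myc-ESCs, 87156 bp in LIF-ESCs), which holds near-identical copies of the 5S ribosomal RNA gene. Reads of such copies cannot be told apart, so its Suz12 is uncertain. All of the 32 genes that start there had Suz12 in both cultures, so leaving them out could not change the counts of culture-only genes. It took the shared genes from 2822 to 2790.

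Around start sites the excess of Myc-ESCs kept the shape of the LIF-ESC profile. Over the 4155 genes with Suz12 at a start site in either culture, the share with a peak was highest 650 bp downstream of the start in LIF-ESCs, at 39.4%, and 550 bp downstream in Myc-ESCs, at 58.3%. The stretch at 50% or more of the top was 2550 bp wide in LIF-ESCs, against 2500 bp in Myc-ESCs. The ratio of Myc-ESCs to LIF-ESCs was 1.52 at the start site, 1.52 at 500 bp downstream and 1.43 at 2500 bp upstream. Suz12 lay more often downstream than upstream within 2500 bp, with means of 38.6% and 23.9% in Myc-ESCs and 26.3% and 16.1% in LIF-ESCs.

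**Figure D2:**
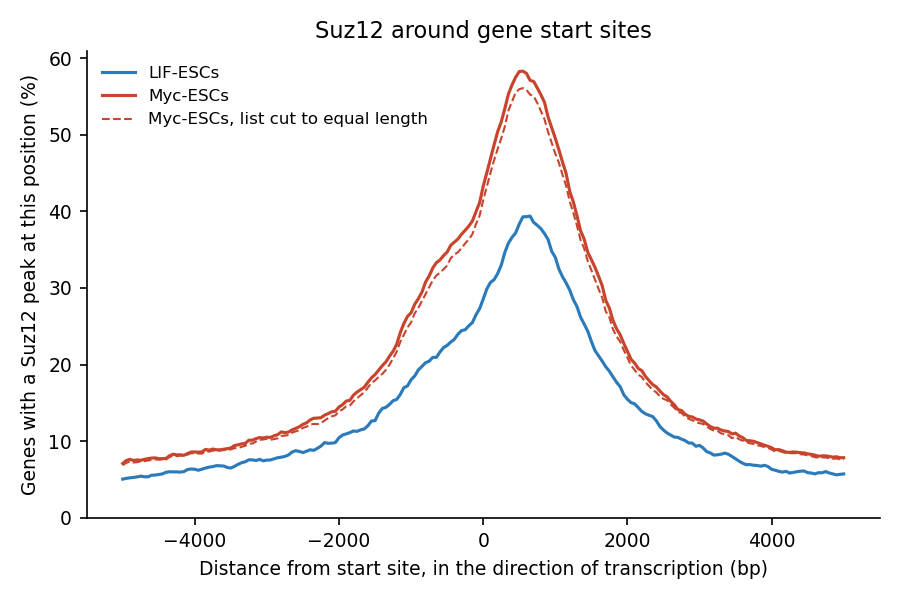
Share of 4155 genes with a Suz12 peak (y axis, percent) at each distance from the start site (x axis, bp, in the direction of transcription). The curve of Myc-ESCs lies above that of LIF-ESCs throughout, with tops of 58.3% and 39.4%, and the dashed curve for lists of equal length has its top at 56.1%.

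At the level of genes, Suz12 within 2500 bp of a start site of the 26180 genes in curated RefSeq was found for 3821 genes in Myc-ESCs, against 3156 in LIF-ESCs. It was shared at 2822 genes, found in Myc-ESCs only at 999 (3.82% of all genes) and found only by the LIF-ESC list at 334 (1.28%). When the lists had equal length, the culture-only genes numbered 817 and 411. Genes were then described by the bases that Suz12 peaks covered in the 5001 bp window around the start site that was most covered in both cultures together. Of the 2822 genes with Suz12 in both, 2290 (81.1%, 79.7 to 82.5) had more bases covered in Myc-ESCs and 510 (18.1%) fewer. The medians were 1798 bp against 1113.5 bp. At least 2 times as many bases were covered in Myc-ESCs at 775 genes, and in LIF-ESCs at 110. With lists of equal length 80.2% had more in Myc-ESCs.

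**Figure D3:**
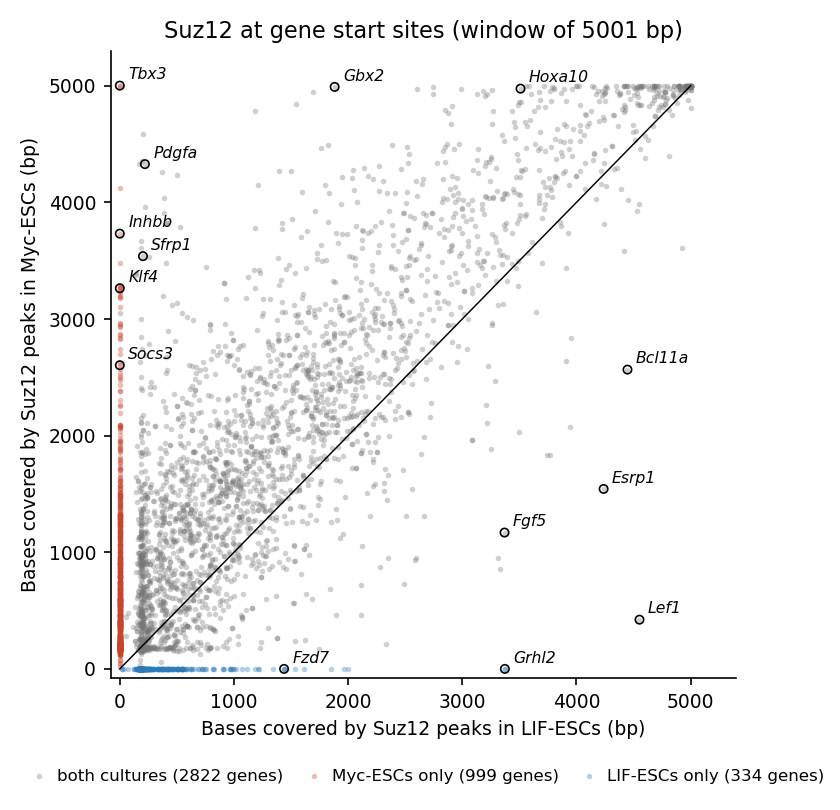
Bases covered by Suz12 peaks in the 5001 bp window of 4155 genes in LIF-ESCs (x axis, bp) and Myc-ESCs (y axis, bp), with the line of equal values and 14 genes named. Of the genes with Suz12 in both cultures 81.1% lie above the line. Tbx3 is at 0 bp against 5001 bp, and Lef1 at 4552 bp against 422 bp.

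The culture-only genes were of unequal strength. Those of Myc-ESCs had a median of 418 bp covered, with 48 at 2000 bp or more and 229 with a peak of score 200 or more. Those of LIF-ESCs had a median of 219 bp, with 2 at 2000 bp or more (Grhl2 and the overlapping Gm16136) and 19 with a score of 200 or more. The other culture had no Suz12 peak within 20000 bp of the start sites of 889 of the 999 genes and 294 of the 334.

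The 8 genes of Myc-ESCs only with the highest scores included Tbx3, Socs3 and Klf4. Tbx3, a T-box factor that supports self-renewal of mouse ESCs, had its whole window of 5001 bp covered in Myc-ESCs by a peak of 7563 bp with the score of 3100, over exons 1 to 3 and the upstream sequence. LIF-ESCs had none, and their nearest Suz12 peak was 125342 bp from the start. Within 20000 bp on each side, Myc-ESCs had 23942 bp of Suz12. Socs3, the feedback inhibitor of Jak and Stat3, had 2604 bp covered by a single peak over both of its exons, against 0 bp, with the nearest LIF-ESC peak 574330 bp away. Klf4, a zinc finger pluripotency factor, had 3264 bp covered against 0 bp, and its highest-scoring peak ran from exon 1 into exon 3.

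The other 5 by score were Islr2, Inhbb, Zfp36l1, Rnf220 and Bub3. Islr2, a membrane protein of neurons with leucine-rich repeats, had 2747 bp covered, with a score of 3131.21, near the common top value of 3100. Inhbb, which encodes the beta-B subunit of activin and inhibin, had 3732 bp. Zfp36l1, an RNA-binding protein that speeds decay of AU-rich mRNAs, had 4126 bp, and Rnf220, a ubiquitin ligase, had 2193 bp in its first exon and intron. All 4 were at 0 bp in LIF-ESCs. The nearest LIF-ESC peak was 619469 bp from the start of Islr2 and 584958 bp from that of Inhbb, but 2733 bp from that of Zfp36l1 and 2943 bp from that of Rnf220, just outside the window. Bub3, of the mitotic spindle checkpoint, was in this class only by the edge of the window. A peak of score 3100 upstream entered it by 52 bp in Myc-ESCs, and the nearest LIF-ESC peak lay 2523 bp from the start, just outside.

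**Figure D4:**
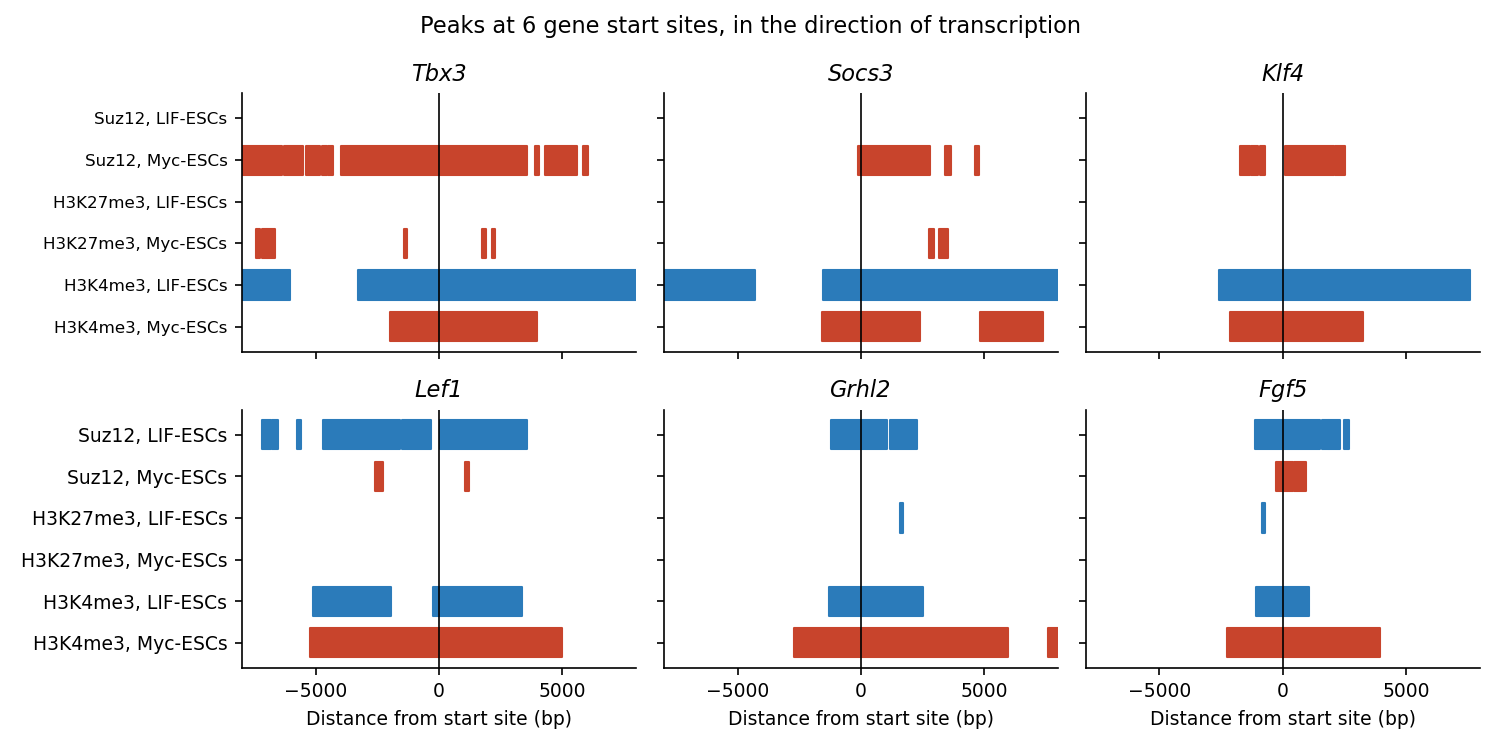
Peaks of Suz12, H3K27me3 and H3K4me3 (rows) in LIF-ESCs (blue) and Myc-ESCs (red) within 8000 bp of the start sites of 6 genes (x axis, bp, in the direction of transcription). Suz12 covers 12559 bp at Tbx3, 3295 bp at Socs3 and 3307 bp at Klf4 in Myc-ESCs and 0 bp in LIF-ESCs, and at Lef1, Grhl2 and Fgf5 it covers more in LIF-ESCs while H3K4me3 covers more in Myc-ESCs.

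Genes with Suz12 in LIF-ESCs only were led by Grhl2, a grainyhead-like factor of epithelia, with 3373 bp covered in LIF-ESCs against 0 bp in Myc-ESCs, where the nearest peak was 557870 bp away. Its highest score was 2329.18, while the other 7 genes chosen by score reached 290.0 to 454.37. They included Kcnj9, a potassium channel (466 bp), Rragd, a GTPase of the mTORC1 pathway (997 bp), Sema3e, an axon guidance ligand (903 bp), Lsm14b, an RNA-binding protein (1442 bp), Lamb1, a laminin chain (1451 bp), and Sall2, a zinc finger factor (1068 bp). Myc-ESCs had no Suz12 peak in the window of any of the 8.

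Among genes with Suz12 in both cultures, the 8 with the largest decrease in Myc-ESCs were led by Lef1, Esrp1 and Lncpint. At Lef1, a transcription factor that works with beta-catenin, 4552 bp were covered in LIF-ESCs by peaks of scores up to 2614.93, and 422 bp in Myc-ESCs by peaks up to 93.87. Fgf5, a growth factor gene switched on in the post-implantation epiblast, had 3370 bp against 1169 bp. Esrp1, a splicing factor of epithelial cells, had 4238 bp against 1543 bp. The others of the 8 were Lncpint, a long non-coding RNA (3329 bp against 853 bp), Lrp2, an endocytic receptor (3312 bp against 948 bp), Cnr1, a cannabinoid receptor (2328 bp against 210 bp), Wt1os, antisense to Wt1 and starting in the same window (3765 bp against 1834 bp), and Bcl11a, a zinc finger factor (4447 bp against 2566 bp). Differences of 2000 bp or more in this direction were seen at 6 genes, and in the other direction at 91.

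The largest gains among genes with Suz12 in both cultures started from a single small peak or a few in LIF-ESCs. Itgb3, integrin beta-3, went from 195 bp in LIF-ESCs to 4353 bp in Myc-ESCs. In the same order of cultures, Pdgfa, a growth factor, had 220 bp and 4328 bp, and Gbx1, a homeobox gene, 391 bp and 4035 bp. Zc3hav1l had 218 bp and 3957 bp, and Ntn1, the guidance cue netrin-1, 1188 bp and 4781 bp. The other 3 of the 8 were clustered protocadherins, cell adhesion genes of neurons: Pcdhga10 (206 bp and 4587 bp), Pcdhga11 (167 bp and 4331 bp) and Pcdhb22 (499 bp and 4237 bp). Of 58 genes of these clusters on chromosome 18, 55 had Suz12 in Myc-ESCs against 35 in LIF-ESCs, and all but 1 of the 56 with Suz12 had more bases in Myc-ESCs. The cluster genes lie side by side and share windows, so they are not separate observations. The stretch carried 117 kb of Suz12 peaks in Myc-ESCs against 28.5 kb in LIF-ESCs, a ratio of 4.10. Chromosome 18 had the largest ratio of any chromosome, 2.12, and 1.70 without the clusters, against 1.29 to 1.76 for the others.

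By family, genes of the Wnt pathway are the ones the study asked about, and 8 genes were taken because the study names their chromatin. It shows Sfrp1, Fzd7 and Socs3 from these same libraries, so the values of these are no independent evidence of a direction. Pairs of values here and in the lists that follow give LIF-ESCs first. Of these 8, Sfrp1, a secreted Wnt antagonist, had 203 bp and 3539 bp. Sfrp5 had 1139 bp and 2082 bp, Dkk1 745 bp and 2573 bp, Sox17 3508 bp and 4216 bp, and Fzd1 3552 bp and 3886 bp. Socs3 is given above. Apcdd1, a membrane Wnt inhibitor, had a single peak of 196 bp in Myc-ESCs only, with a score of 69.32. Fzd7, a Wnt receptor, had 1439 bp in LIF-ESCs, in 6 peaks of scores up to 111.15, and 0 bp in Myc-ESCs, where the nearest peak was 1705913 bp away.

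The counts below are to be read beside all 26180 genes, of which 4155 had Suz12 in either culture. It was in Myc-ESCs only at 3.82% of all genes and in LIF-ESCs only at 1.28%. Among 15 secreted Wnt antagonists 9 had Suz12. Of the 8 with it in both cultures 7 had more bases in Myc-ESCs, a share to be read beside the 81.1% over all such genes, with medians of 609.5 bp and 1983.5 bp. Wif1 had fewer (474 bp and 295 bp). Notum, which inactivates Wnt ligands, had 0 bp and 2093 bp. The 14 membrane and intracellular Wnt inhibitors were mixed. Of the 4 with Suz12 in both cultures 2 had more in Myc-ESCs and 2 fewer. Axin2 (847 bp), Nkd2 (418 bp) and Apcdd1 had it in Myc-ESCs only, and the ubiquitin ligases Rnf43 (131 bp) and Znrf3 (213 bp), which clear Frizzled receptors from the cell surface, in LIF-ESCs only. All 10 Frizzled receptor genes had Suz12 in some culture. Of the 7 with it in both, 5 had more in Myc-ESCs, led by Fzd9 (193 bp and 1573 bp), while Fzd2 (3248 bp and 1888 bp) and Fzd4 (793 bp and 182 bp) had fewer. Fzd10 (2966 bp) and Fzd5 (404 bp) had it in Myc-ESCs only. Of the 19 Wnt ligand genes 17 had Suz12, and all 16 with it in both cultures had more bases in Myc-ESCs, with medians of 1976.5 bp and 2897.5 bp. Wnt10a had the largest difference, 406 bp and 3482 bp, and Wnt5b had 1225 bp in Myc-ESCs only.

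Of 24 LIF receptor, Jak, Stat and Socs genes 9 had Suz12 in at least 1 culture, all of them in Myc-ESCs and 4 of them in LIF-ESCs as well. These counts stand beside 4155 of all 26180 genes with Suz12 in either culture and 3.82% with it in Myc-ESCs only. Among shared genes, 81.1% had more in Myc-ESCs. Of Myc-ESCs only were 5, which were Socs3, Il6ra (1162 bp), Socs7 (658 bp), Socs2 (248 bp) and Stat5b (225 bp). The 4 shared genes all had more in Myc-ESCs, with Jak1 at 188 bp and 1281 bp, Jak2 at 191 bp and 1137 bp, Lepr at 771 bp and 2345 bp and Socs1 at 182 bp and 321 bp. Of 18 pluripotency factors 6 had Suz12 in Myc-ESCs against 3 in LIF-ESCs, beside 3821 and 3156 of all 26180 genes. Tbx3, Klf4 and Klf5 (904 bp) were of Myc-ESCs only, and Prdm14, a germline and naive pluripotency factor, had 1172 bp and 3419 bp. Esrrb had 2054 bp and 2910 bp, and Dppa3, a maternal factor of the early embryo, had fewer, 1036 bp and 283 bp.

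Many regulators of lineages were covered almost whole in both cultures, which leaves little room within the window for more. The counts of these lists are to be read beside the 81.1% of all shared genes that had more in Myc-ESCs. Of all 26180 genes, 4155 had Suz12 in either culture, and 3.82% had it in Myc-ESCs only. All 23 neural regulators had Suz12 in both cultures, with medians of 4321 bp and 4811 bp. Of these 20 had more in Myc-ESCs, with Gbx2, a homeobox gene, furthest apart (1882 bp and 4990 bp), and Neurod1 had fewer (2314 bp and 1526 bp), as did Otx2 (5001 bp and 4811 bp). Of the 39 Hox genes 31 had more and 4 fewer, with medians of 4172 bp and 4945 bp, the largest difference at Hoxc13 (2044 bp and 4280 bp) and the largest decrease at Hoxd4 (3206 bp and 2260 bp). Of the 11 endoderm regulators with Suz12 9 had more, led by Hhex (190 bp and 3673 bp), while Pdx1 (2635 bp and 1840 bp) and Onecut1 (4170 bp and 4025 bp) had fewer. Of the 17 regulators of primitive streak and mesoderm with Suz12 16 had it in both cultures, 14 with more in Myc-ESCs, among them Foxc1 (2514 bp and 4473 bp), and 2 with fewer, Hand1 (4242 bp and 3812 bp) and Mesp1 (1158 bp and 943 bp). Mesp2 had 156 bp in Myc-ESCs only. Of 18 genes on a list of Pax, Irx and other homeobox regulators with Suz12 in both cultures 16 had more, with Irx2 (1990 bp and 3732 bp) foremost, and Irx3 had fewer (4329 bp and 4289 bp). Six5 (1068 bp) and Pax4 (125 bp) were of Myc-ESCs only.

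Among 22 Bmp, Nodal and inhibitor genes 15 had Suz12 in Myc-ESCs against 11 in LIF-ESCs. In this list and those that follow, the shares over all genes were again 81.1% with more in Myc-ESCs among shared genes and 3.82% in Myc-ESCs only. Of all 26180 genes, 3821 had Suz12 in Myc-ESCs and 3156 in LIF-ESCs, and 1.28% had it in LIF-ESCs only. Of the Id genes, the inhibitors of differentiation that Bmp induces, Id3 (2867 bp) and Id1 (384 bp) had it in Myc-ESCs only and Id2 (905 bp) in LIF-ESCs only. Bmp4 (2265 bp), Inhbb and Lefty1 (633 bp) were also of Myc-ESCs only. Of the 10 with Suz12 in both cultures 9 had more bases in Myc-ESCs and Bmp8b had fewer (603 bp and 532 bp). All 4 shared cyclin-dependent kinase inhibitor genes had more, with Cdkn2c at 2484 bp and 3906 bp and Cdkn2a, the tumour suppressor of the Ink4a locus, at 2526 bp and 3761 bp, and Cdkn1a had 196 bp in Myc-ESCs only. Of 20 cadherins and protocadherins outside the clusters 15 had more and 4 fewer, with Cdh22 (1411 bp and 3331 bp) and Cdh2 (970 bp and 2688 bp) furthest up and Cdh18 (705 bp and 234 bp) and Pcdh8 (4389 bp and 4111 bp) furthest down. Of 22 Polycomb subunit genes 5 had Suz12 in both cultures, all with more in Myc-ESCs, among them Phf19, an accessory subunit of PRC2 (1109 bp and 1948 bp), and Phc2 (408 bp) and Pcgf2 (185 bp) had it in Myc-ESCs only.

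H3K27me3, the mark that PRC2 lays down, accompanied Suz12 more often in Myc-ESCs. A region was counted as marked where a peak of the mark lay within 1000 bp. Of the Suz12 regions of Myc-ESCs only, 55.0% had H3K27me3 in Myc-ESCs (53.9 to 56.1) and 11.7% in LIF-ESCs (11.0 to 12.5). Of those of LIF-ESCs only, 31.6% had it in Myc-ESCs (29.8 to 33.4) and 17.5% in LIF-ESCs (16.1 to 19.1). With lists of equal length the shares in Myc-ESCs were 57.3% and 32.4%. For regions of LIF-ESCs only, the share varied with Suz12 nearby. Where no Myc-ESC Suz12 peak lay within 5000 bp, 11.6% of 916 regions had the mark in Myc-ESCs (9.66 to 13.8) and 13.6% in LIF-ESCs (11.6 to 16.0), so here it was not more frequent in Myc-ESCs. Where one did, 43.4% of 1551 had it in Myc-ESCs (40.9 to 45.9) and 19.8% in LIF-ESCs (17.9 to 21.9). For regions of Myc-ESCs only with no LIF-ESC Suz12 within 5000 bp, 43.4% of 3124 had H3K27me3 in Myc-ESCs (41.7 to 45.2) and 5.67% in LIF-ESCs (4.91 to 6.53). Of the classes compared, regions where a Myc-ESC peak spanned several LIF-ESC peaks had the highest share in Myc-ESCs, 79.1% (76.9 to 81.2), and a median CpG ratio, observed over expected in the central 300 bases, of 0.64. That ratio was 0.37 in regions of Myc-ESCs only, 0.40 in those of LIF-ESCs only and 0.38 over 32851 RefSeq promoters. Regions where Myc-ESCs joined peaks were also longer, with a median of 1824.5 bp. The medians were 210 bp in regions of Myc-ESCs only and 198 bp in those of LIF-ESCs only. A longer region takes in more sequence, and the part of length in the shares of the classes was not tested. The H3K27me3 lists were called separately in each culture, and the part of their depth in these shares was not tested.

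**Figure D5:**
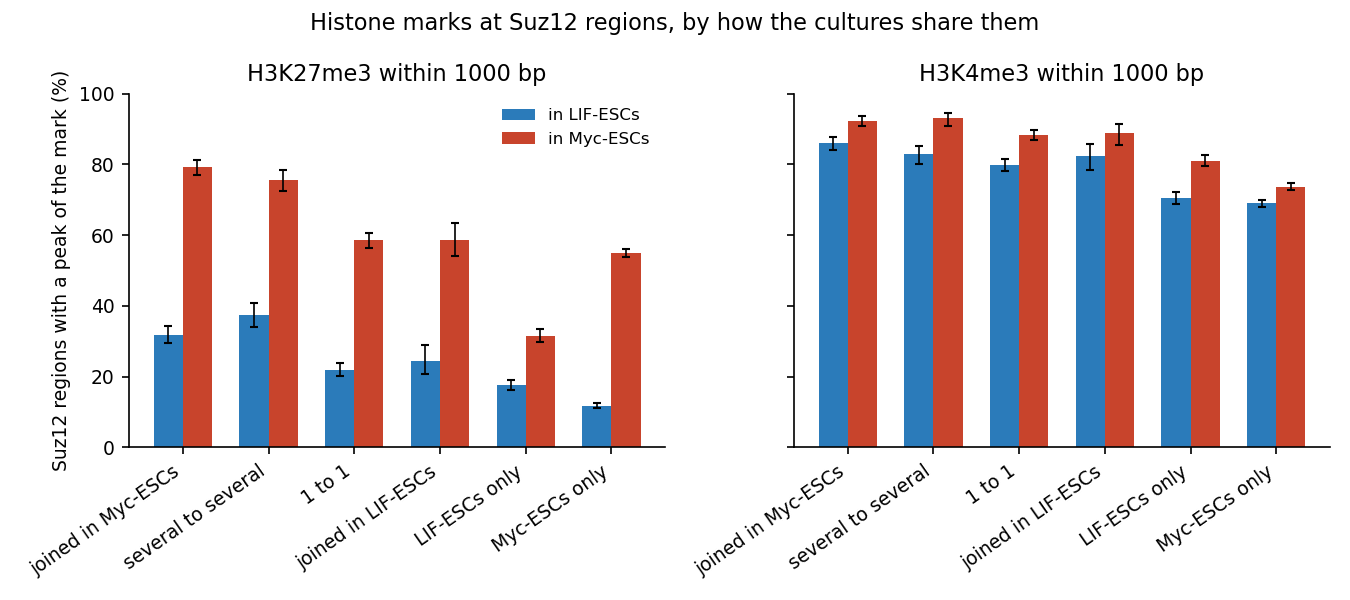
Share of Suz12 regions with a peak of H3K27me3 or H3K4me3 within 1000 bp (y axis, percent) in LIF-ESCs (blue) and Myc-ESCs (red), for 6 kinds of region, with 95% Wilson intervals. H3K27me3 is more frequent in Myc-ESCs in each kind, from 31.6% in regions of LIF-ESCs only to 79.1% where Myc-ESCs joined peaks, and the shares of H3K4me3 in the cultures lie closer together.

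At start sites H3K27me3 was found in Myc-ESCs at 71.7% of genes with Suz12 in both cultures (70.0 to 73.3), 38.1% of those with Suz12 in Myc-ESCs only (35.2 to 41.2), 18.0% of those with Suz12 in LIF-ESCs only (14.2 to 22.4) and 1.43% of those with Suz12 in neither. In LIF-ESCs the shares were 27.4%, 6.51%, 9.28% and 0.477%. Among genes of Myc-ESCs only that had H3K27me3 in Myc-ESCs, the median in the window was 258 bp. The strongest genes of Myc-ESCs only by Suz12 score lay on both sides of this value. Tbx3 had 452 bp, Islr2 158 bp, Zfp36l1 146 bp and Inhbb 58 bp, while Socs3, Klf4, Rnf220 and Bub3 had 0 bp. Within 8000 bp of its start Socs3 had 585 bp and Tbx3 1128 bp in Myc-ESCs, and LIF-ESCs had 0 bp at both.

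At genes with less Suz12 in Myc-ESCs, H3K4me3 mostly covered more bases there. So it did over all genes with Suz12 in both cultures, most of which had more Suz12 bases in Myc-ESCs. Genes with 2000 bp or more of Suz12 gained in Myc-ESCs, or present there only, were mixed. Of 15684 genes with H3K4me3 in both cultures, 65.0% had more bases of it in Myc-ESCs and 32.0% fewer. Where Suz12 was in LIF-ESCs only, the share with more H3K4me3 in Myc-ESCs was 91.7% (88.0 to 94.4) of 290 genes, and at 500 bp or more of Suz12 56 of 57 genes. Of the 36 genes that had Suz12 in both cultures and at least 1000 bp fewer in Myc-ESCs, 33 had more H3K4me3 and 0 fewer. Where Suz12 was in Myc-ESCs only the share was 65.0% (61.9 to 68.1) of 927 genes, the same as over all. At 2000 bp or more of Suz12 it was 14 of 45 genes, with 24 having fewer bases of H3K4me3 in Myc-ESCs. A window of 5001 bp cannot show a gain where H3K4me3 already fills it, and the median of these 45 genes in LIF-ESCs was 4052 bp. Of 86 genes with Suz12 in both cultures and at least 2000 bp gained in Myc-ESCs, 47 (54.7%, 44.2 to 64.7) had more H3K4me3 and 35 fewer. All genes with Suz12 in both cultures had more H3K4me3 in Myc-ESCs in 86.5% (85.2 to 87.8) of 2586. Within 8000 bp of the start, H3K4me3 at Tbx3 covered 13271 bp in LIF-ESCs against 5954 bp in Myc-ESCs. The values were 13246 bp and 6537 bp at Socs3 and 10182 bp and 5415 bp at Klf4. They ran the other way at Lef1 (6765 bp and 10193 bp), Grhl2 (3823 bp and 9103 bp) and Fgf5 (2173 bp and 6230 bp). These 6 genes were named for their Suz12 or shown for it, not for H3K4me3.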

How the data were processed

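ChIP DNA of Suz12, H3K27me3 and H3K4me3 from LIF-ESCs and Myc-ESCs, with inputs, was sequenced in 16 libraries, 2 for each culture and antibody. Per the submitters' processing notes, reads were aligned to GRCm38 with Bowtie2 2.2.3 and peaks were called with MACS 1.4.2. The authors deposited 1 peak list for each culture and antibody, with a position and a score per peak. The score is not described in the files. Its lowest value of 50 and the program that made it point to a p-value on a log scale, so it grows with depth, and it was used only to rank or filter. How the 2 libraries behind each list were combined is not given in the sources used here, and no depth per sample is known.

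Peak positions were checked against the chromosome lengths of GRCm38, and none lay outside. Peaks overlap when they share at least 1 base. Regions are sets of peaks linked by overlap. Genes are the 26180 symbols of 45756 curated RefSeq transcripts, with Suz12 counted within 2500 bp of any start site. A peak can count for several neighbouring genes. Counts, shares and Wilson intervals were computed with Python 3.11.15, pandas 2.3.3, numpy 2.4.6 and pysam 0.24.0, and the code was tested on simulated data. No test between cultures was possible, because each had 1 list.

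Genes named are the 8 with the highest score in each culture only, with 1 gene per peak. To these were added the 8 largest increases and decreases in bases covered among genes with Suz12 in both, and those at the 3 peaks that join most peaks of the other culture in each direction. In each gene list the 2 largest increases and decreases and the members with Suz12 in 1 culture only were named, together with the 8 genes the study names. Results for some genes that these rules name are not reported here. Members of counts of 5 or fewer were named after their values were seen. The comparisons, lists and genes were chosen with earlier results of these data known.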

Additional observations from a re-analysis of the deposited data

How the results depend on the processing

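Of the 44 recomputed values, 18 stayed within the interval or within 1.5 times of the value reported. A change of direction was looked for only in the share of pairs longer in Myc-ESCs and the share of genes with more bases there. Neither changed direction. The other results are counts and shares for which no direction was defined. With lists of equal length, 75.4% of LIF-ESC peaks and 50.9% of Myc-ESC peaks were shared, 75% of pairs were longer in Myc-ESCs, and 57.3% of regions of Myc-ESCs only had H3K27me3. That cut took out only low-scoring, mostly short Myc-ESC peaks, which in itself favours longer Myc-ESC peaks among the pairs. With a score of at least 100 in every list, 88.4% and 51.3% were shared, 79.4% of pairs and 83.6% of genes had more in Myc-ESCs, 1146 and 543 peaks joined others, 170 genes were of LIF-ESCs only, and H3K27me3 was at 27% and 8.08% of regions of Myc-ESCs only and LIF-ESCs only, with the Suz12 and H3K27me3 lists filtered together. Overlap of at least 50% of both peaks left 23.7% and 19.3% shared. Joining peaks within 500 bp gave 74.2% and 53.7% shared, 74.6% of pairs longer in Myc-ESCs, and 432 and 47 joining peaks. Among pairs whose lengths differed by at least 25%, 76.7% were longer in Myc-ESCs. A window of 1000 bp gave 78.4% of genes with more bases in Myc-ESCs. H3K27me3 at 0 bp gave 24.7% and 11.3%, and at 5000 bp 71.6% and 49.7%, of regions of Myc-ESCs only and LIF-ESCs only. GENCODE in place of RefSeq moved no gene count by over 1.5 times. Leaving out the copies of the 5S ribosomal RNA gene was chosen after seeing the data. It could not move the culture-only counts, because these copies had Suz12 in both cultures, and it left 81.0% of shared genes with more bases in Myc-ESCs. Leaving out a library was not possible because each culture had 1 list, and no paired analysis was possible because the result comes from no test.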

Other observations

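Among genes with Suz12 in Myc-ESCs only, and chosen after their values were seen, 2 pairs of related genes lay near the top by bases covered. Tle3 and Tle1, corepressors that bind Tcf and Lef factors, had 3101 bp and 2941 bp in Myc-ESCs and 0 bp in LIF-ESCs. Macroh2a1 and Macroh2a2, which encode variants of histone H2A found in silent chromatin, had 2959 bp and 2874 bp against 0 bp. Skida1 had 3477 bp and Tead1, a transcription factor of the Hippo pathway, 3263 bp, again against 0 bp. Among genes with Suz12 in LIF-ESCs only, Lmo4, a LIM-domain protein, had 1998 bp and Zfp608 1967 bp, and Fgf15, a growth factor, had 1537 bp, against 0 bp in Myc-ESCs. H3K4me3 in the same windows went from 3845 bp in LIF-ESCs to 5001 bp in Myc-ESCs at Fgf15 and from 2722 bp to 5001 bp at Zfp608.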
